A study of Mus musculus with 8 samples.

Results

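Forkhead (Fox) and Sox genes encode 2 large families of DNA-binding transcription factors, and 58 of them were examined here for N6-methyladenosine (m6A) peaks in mouse primary vascular smooth muscle cells (VSMCs). Members were protein-coding genes of the GENCODE M21 annotation whose symbol is Sox followed by digits, or Fox followed by 1 letter and digits, apart from Sox9, Foxo1, Foxo3 and Foxo4. The 58 genes described here comprise 40 Fox and 18 Sox genes of 21951 protein-coding genes. A member was counted as carrying a peak where a peak summit lay in 1 of its annotated exons, and 27 of the 58 did so in at least 1 of 4 peak lists (17 Fox and 10 Sox genes).

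The cells were isolated from the descending aorta of adult C57BL/6J mice and transduced with lentivirus carrying a nontargeting hairpin (shCTR) or a hairpin against Mettl14 (shMettl14). Both arms were therefore virus-transduced, wild-type cells, and the knockdown rested on 1 hairpin. For each shRNA, replicates A and B were sequenced both after immunoprecipitation with an anti-m6A antibody (IP) and without it (input), which gave 4 IP and 4 input samples. Where 4 values are listed without names, their order is shCTR A, shCTR B, shMettl14 A, shMettl14 B. The sources used here do not state whether the letters mark separate isolations, so the spread between replicates may be partly technical.

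Forkhead factors bind DNA through a winged-helix domain, and Sox factors bend DNA through an HMG box. Members of both families set cell identity during development, and FoxC, FoxF and SoxF factors are known from the vessel wall and the endothelium. m6A is written by the Mettl3-Mettl14 complex on adenosines in the DRACH context, in which D stands for any base but C, R for a purine and H for any base but G, and in mRNA it lies mostly in long internal exons and around stop codons. A peak shows where antibody-bound fragments exceeded their local background, and neither the level of the transcript nor the methylated base itself was measured.

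The strongest sites are shown first because the comparisons below turn on them. Each sequence is the DRACH motif nearest to the median summit of the region, in capitals, with 8 bases on either side, read 5′ to 3′ along the transcript from GENCODE M21 (GRCm38). The first 8 belong to the members whose strongest region ranked highest on average, among members with a peak in all 4 lists. The last belongs to the 1 region that had a peak in both lists of 1 shRNA and in neither list of the other. A nearest motif is a description of the sequence and does not show that its adenosine was methylated.
Foxc1, 5′ UTR, chr13:31807065-31807085, plus strand: cgcggccgGGACAgacgcagc
Foxk2, 3′ UTR, chr11:121307093-121307113, plus strand: ctgcggttGGACTtcacctct
Foxk1, 3′ UTR, chr5:142457299-142457319, plus strand: ttggctttGGACCctaaatat
Sox4, 3′ UTR, chr13:28951602-28951622, minus strand: aaacaaaaAAACAaacaaaaa
Foxp1, exon past the chosen coding transcript, chr6:98929712-98929732, minus strand: ttagcagcAGACTttgaactg
Sox7, 3′ UTR, chr14:63949162-63949182, plus strand: tgaatgaaTGACTgcccaagg
Foxs1, 3′ UTR, chr2:152932064-152932084, minus strand: tggctataTGACCtagggcac
Foxn2, first bases of the 3′ UTR, chr17:88486917-88486937, plus strand: ggaaaagtAGACAtgcgcaga
Foxj2, 5′ UTR, chr6:122820492-122820512, plus strand: cctccaggGAACCgccaggaa

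In these 9 regions the motif lay between 0 nt (Sox4) and 21 nt (Foxn2) from the median summit. Foxc1, Foxk1 and Foxk2 had a motif that begins with GGAC. The A-rich Sox4 stretch held 7 DRACH motifs within 50 nt of the summit, the most of the 9, and the Foxn2 window held 1. The Foxn2 motif begins inside the stop codon, and only its central A and the bases after it lie in the 3′ UTR.

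To determine which family members carried m6A, exonic summits were counted in each list. Every gene of the FoxC, FoxF, FoxK, SoxC, SoxD and SoxF subfamilies had a peak in at least 1 list. So had Foxm1 and Foxs1, the only members of FoxM and FoxS. The FoxB, FoxD, FoxE, FoxH, FoxI, FoxO, FoxQ, FoxR, SoxB1, SoxE, SoxG and SoxH members had none. A summit was found in 23 and 20 members in the shCTR lists and in 24 and 20 in the shMettl14 lists. The shRNAs overlapped, with a mean of 21.5 ± 2.12 members in shCTR and 22 ± 2.83 in shMettl14 (SD, n = 2 lists each, exact permutation test, two-sided, p = 1). With 2 lists against 2, this test cannot give a p below 0.333.

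A summit was found in all 4 lists for 16 of the 58 members (27.6%), beside 16.0% of all protein-coding genes. The corresponding share with a summit in at least 1 list was 46.6% of members and 25.3% of protein-coding genes. These shares describe the lists and were not tested, since a peak can be called only on a transcript that is present and transcript levels were not measured here. The 16 were Foxc1, Foxc2, Foxf1, Foxk1, Foxk2, Foxm1, Foxn2, Foxn3, Foxp1, Foxp4, Foxs1, Sox4, Sox5, Sox7, Sox12 and Sox17. Of 23 genes with an HMG box outside the Sox family, 7 (30.4%) had a peak in all 4 lists, as did 13 of 31 (41.9%) other transcription factors of mesenchymal and vascular cells, among them Gata6, Tead1, Twist1 and Zeb1.

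In 3 lists, a summit was found for 4 members. Foxp2 and Sox13 lacked one in shCTR B, and Sox11 and Sox18 lacked one in shMettl14 B. Foxa1 was listed in both B lists, Foxf2 and Foxl1 in both A lists, and Foxj2 in both shCTR lists. Foxa2 was found in shMettl14 B, and Sox6 and Sox21 in shMettl14 A, each with 5 fragments or fewer at the summit. The remaining 31 members had no exonic summit in any list. They were Foxa3, Foxb1, Foxb2, Foxd1, Foxd2, Foxd3, Foxd4, Foxe1, Foxe3, Foxh1, Foxi1, Foxi2, Foxi3, Foxj1, Foxj3, Foxl2, Foxn1, Foxn4, Foxo6, Foxp3, Foxq1, Foxr1, Foxr2, Sox1, Sox2, Sox3, Sox8, Sox10, Sox14, Sox15 and Sox30.

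**Figure D1:**
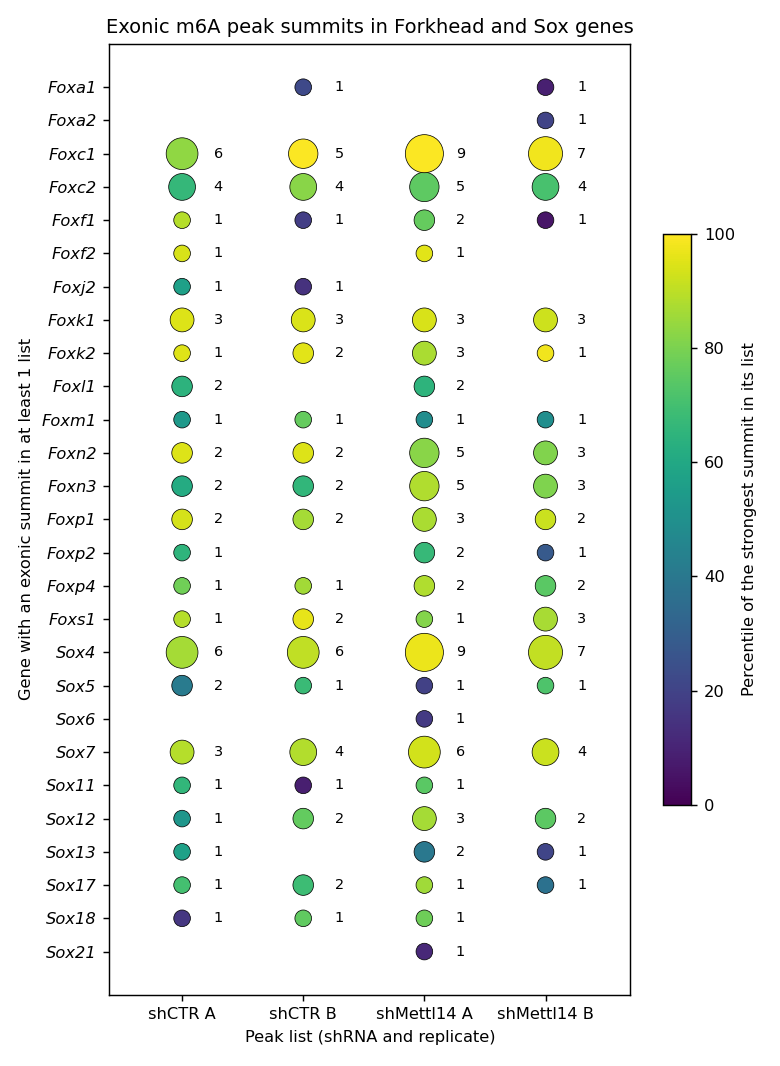
Rows are the 27 members with an exonic summit in at least 1 list and columns are the 4 peak lists. Circle area and the number beside it give the summits, and colour gives the percentile of the strongest summit by fold enrichment within its list. Foxc1 and Sox4 have 5 to 9 summits in every list, and Foxl1, Foxf2, Foxa1 and Foxj2 each fill 2 of the 4 columns.

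Member summits numbered 45 and 44 in the shCTR lists and 70 and 49 in the shMettl14 lists. Both shMettl14 lists held more, with means of 59.5 ± 14.8 and 44.5 ± 0.707 (SD, n = 2 each, exact permutation p = 0.333, the smallest this design allows). Most of the difference of 15 summits came from shMettl14 A, and it was 4.5 without that list and 25.5 without shMettl14 B. The difference lay in summits within shared intervals, since the lists held 32, 29, 33 and 31 distinct member intervals. As a share of all summits of a list, member summits made up 0.403% and 0.508% in shCTR and 0.512% and 0.529% in shMettl14 (exact permutation p = 0.333), with shCTR B and shMettl14 A close together. Foxc1 and Sox4 together supplied 12, 11, 18 and 14 of the summits, or 25.0% to 28.6% of a list's total.

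Depth sets the weight of each value. The files give no read totals, but the number of overlapping IP fragments at every summit could be recovered from the deposited fold enrichment and p-value. Over all summits the median was 16 fragments in each shCTR list, against 14 and 13 in the shMettl14 lists. Member summits had medians of 30, 27, 20 and 18 fragments in the same order. Beside them, the local background is the number of fragments expected from the input, and the percentile is the place of a summit among all summits of its list by fold enrichment.

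The FoxC genes carried several peaks each. Foxc1 (ENSMUSG00000050295.4, chr13:31806633-31812476), a regulator of mesenchymal and vascular development, is a single-exon gene with 6, 5, 9 and 7 summits. Its strongest summit lay in the 5′ UTR at the GGACA site printed above, between −1805 and −1763 nt. Positions of summits are given along the transcript from the first base of the stop codon, with negative values towards the 5′ end. The summit held 49 and 58 fragments in shCTR and 55 and 38 in shMettl14, which placed it at percentiles 83.3, 99.5, 99.6 and 97.7. shCTR A stood lowest there, with a background of 2.91 fragments against 0.827 to 1.36 in the other 3 lists. A second Foxc1 region across the stop codon and early 3′ UTR ranked at percentiles 79.2, 68.1, 67.9 and 60.4, with both shMettl14 lists just below both shCTR lists (limma, adjusted p = 0.999).

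Foxc2 (chr8:121116171-121118895), the close relative of Foxc1 that acts in artery and lymphatic formation, had 4, 4, 5 and 4 summits in its 1 exon. In the region around its stop codon, the summit of highest fold enrichment held 31, 42, 32 and 26 fragments, at percentiles 66.6, 82.2, 75.2 and 70.7. The strongest summit was the 3′ UTR one in both shCTR lists (309 and 329 nt) and the late coding one in both shMettl14 lists (−66 and −62 nt), though all 4 lists had summits at both places. In shCTR A these were nearly tied, with fold enrichments of 9.69 in the 3′ UTR and 9.55 in the late coding sequence. The late coding summit held more fragments there, 41 against 31. The fragments listed above thus come from different summits between the shRNAs. A coding region further upstream, between −1011 and −907 nt, ranked at percentiles 29.3, 71.6, 52.6 and 16.3.

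Foxf1, Foxf2 and Foxl1, factors of gut, lung and other mesenchyme, had peaks that separated the lists by replicate letter. Foxf1 (chr8:121084386-121088144) had 30 fragments in shCTR A and 28 in shMettl14 A, but 5 in shCTR B and 4 in shMettl14 B, at the same 3′ UTR place 100 to 129 nt past the stop codon start. The percentiles were 88.8 and 76.5 in the A lists and 18.2 and 5.78 in the B lists, so the A and B values did not overlap while the shRNAs did. The background was also higher in the A lists, 1.13 and 1.80 against 0.0696 and 0.103. The deposited fold enrichment adds a constant to both fragments and background, so a place with few fragments ranks low however small its background is. The lower percentiles in the B lists therefore do not show a weaker enrichment over background. Foxf2 (chr13:31625816-31631403) had a 3′ UTR peak of 19 and 17 fragments in the A lists, at percentiles 94.1 and 95.6, and no interval in the B lists.

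Foxl1 (chr8:121127940-121130644) likewise had a coding peak of 13 and 17 fragments and a 3′ UTR peak of 19 and 9 fragments in the A lists alone. Of the 37 member regions, 3 were found in both A lists alone, beside 6.79% of all 11361 regions, and 1 in both B lists alone, beside 1.21%. The region in both B lists was a coding peak of Foxs1 with 17 and 9 fragments. What the letters stand for is not stated, so letter and culture cannot be told apart.

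The FoxK genes, repressors with roles in metabolism and autophagy, had 2 of the strongest regions. Foxk1 (chr5:142401497-142462011) had 36, 35, 27 and 24 fragments at a 3′ UTR summit 490 to 569 nt past the stop codon start, at percentiles 94.9, 94.2, 93.9 and 92.6. The 4 lists thus lay within a narrow band, and the rank difference was −0.17 ± 0.49 (SE) in normal score units (limma, adjusted p = 0.999). Foxk2 (chr11:121259990-121309896) had 49, 48, 38 and 39 fragments 102 to 142 nt past the stop codon start, at percentiles 95.1, 95.7, 87.3 and 98.0. shMettl14 A was the lowest of these and shMettl14 B the highest.

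Foxn2 and Foxn3 encode related repressors, and each had 1 coding region far upstream and 1 near the stop codon. At the stop codon of Foxn2 (chr17:88440711-88490533) the lists had 48, 44, 28 and 27 fragments. The percentiles were 94.6 and 94.7 in shCTR and 73.0 and 81.2 in shMettl14, which did not overlap. By recovered fragments in place of fold enrichment, the difference of −17.5 percentile points shrank to −7.55. The rank difference of −1.03 ± 0.50 (SE) was the lowest of the 23 member regions tested and did not pass the test (limma, adjusted p = 0.985). As a share of the fragments summed over all regions tested, the log2 ratio of shMettl14 to shCTR was −0.45 (Fisher's exact test, p = 0.0686, adjusted p = 1).

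Both Foxn3 regions (gene at chr12:99190078-99563582) moved the other way by rank. The coding region near the stop codon stood at percentiles 60.9 and 65.8 in shCTR and 88.0 and 80.7 in shMettl14, a rank difference of 0.74 ± 0.49 (SE, limma, adjusted p = 0.993). It held 31 and 28 fragments in shCTR and 35 and 28 in shMettl14, and the difference of 21.0 percentile points fell to 9.21 by recovered fragments. The upstream region stood at 29.8 and 32.6 in shCTR and 82.0 and 68.7 in shMettl14, a rank difference of 1.27 ± 0.49 (SE), the highest of the 23 (limma, adjusted p = 0.927). Its fragment numbers hardly differed, at 25 and 23 in shCTR and 24 and 22 in shMettl14. The background there was 3.07 and 2.62 in shCTR and 1.20 and 1.24 in shMettl14.

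The upstream peaks of this pair lay at similar places, an observation made after their values were seen. The median summit was at −1061 nt in Foxn2 and −1081 nt in Foxn3, in exon 2 of 6 in both genes, with exon lengths of 551 and 557 nt. After alignment of the coding sequences, which had 65.4% identity over 1245 aligned bases, the Foxn2 summit fell 57 nt from the Foxn3 summit. The nearest DRACH motifs are printed to compare them.
Foxn2, coding, chr17:88462935-88462955, plus strand: caaacctcAGACTtggaagtg
Foxn3, coding, chr12:99388616-99388636, minus strand: ctagacgaTGACAccccacca

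The FoxP genes encode repressors that act in heart, lung and lymphocytes. Foxp1 (chr6:98925338-99522721) had 49, 41, 38 and 29 fragments, at percentiles 93.4, 86.4, 87.3 and 92.0, with overlapping shRNAs. Its summit lay 354 bases past the start of the stop codon of the chosen transcript, in a stretch that 4 of its 31 annotated transcripts hold in 1 exon together with that stop codon. Foxp4 had 24, 27, 23 and 15 fragments, 80 to 217 nt past the stop codon start. Foxp2, known for its part in neural circuits of vocalization, had 10, 9 and 6 fragments in the 3 lists that held it.

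Foxm1, which drives genes of the late cell cycle, had a coding peak of 10, 17, 9 and 12 fragments, at percentiles 53.9, 76.2, 48.7 and 49.2. Both shMettl14 values lay below both shCTR values, with means of 48.9 ± 0.309 and 65.1 ± 15.8 (SD, n = 2 each), and the region did not pass the test (limma, adjusted p = 0.999). The difference of −16.1 percentile points rested largely on shCTR B, and it was −4.95 without that list and −4.65 by recovered fragments. Foxs1, a pericyte marker, had 30, 39, 17 and 26 fragments 64 to 92 nt past the stop codon start. Its percentiles of 88.8 and 96.3 in shCTR and 81.4 and 86.8 in shMettl14 did not overlap, and the rank difference was −0.61 ± 0.51 (SE, limma, adjusted p = 0.999). The percentile difference of −8.45 points was −4.69 without shCTR B.

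**Figure D2:**
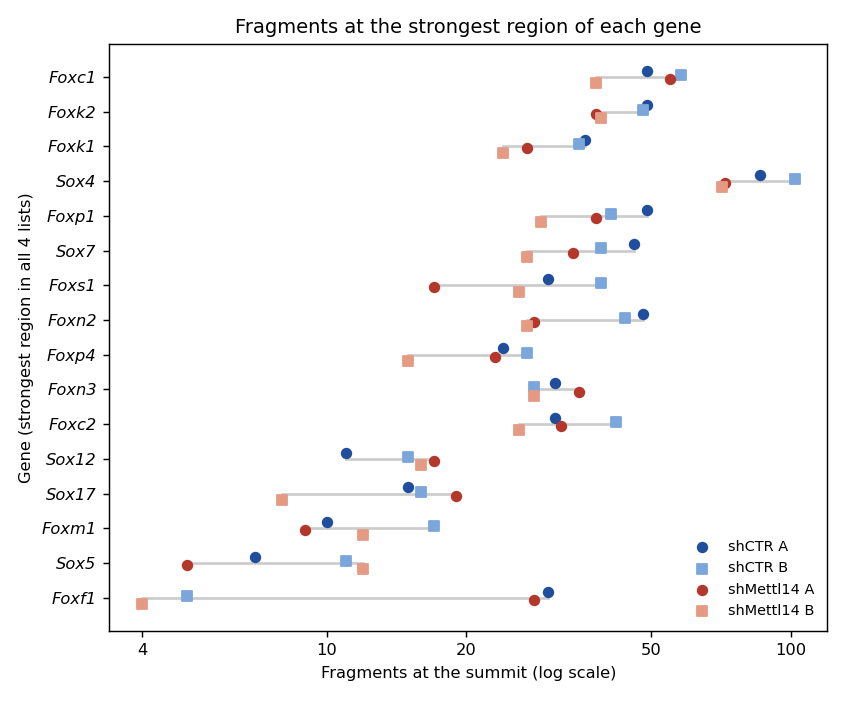
Points give the fragments at the summit of the strongest region (log axis) for the 16 members with a summit in all 4 lists, ordered from the highest mean percentile at the top. The grey line spans the 4 lists. Sox4 has the most, 71 to 102 fragments, and Foxf1 splits into 30 and 28 fragments in the A lists and 5 and 4 in the B lists.

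SoxC factors act in progenitor cells. Sox4 (ENSMUSG00000076431.4, chr13:28948919-28953713) had the highest fragment numbers of all members. Its 3′ UTR summit, 40 to 107 nt past the stop codon start, held 86 and 102 fragments in shCTR and 72 and 71 in shMettl14. By fold enrichment the order turned, with percentiles of 86.5 and 90.6 in shCTR and 97.0 and 90.8 in shMettl14, beside backgrounds of 5.34, 5.53, 3.15 and 3.62. The rank difference of 0.41 ± 0.50 (SE) was smaller than its error (limma, adjusted p = 0.999), and the percentile difference of 5.36 points fell to 0.105 by recovered fragments and to 2.30 without shMettl14 A. The 3′ UTR summits of Sox4 also lay in an exon of the noncoding gene Gm26735, which runs on the opposite strand, and the lists carry no strand.

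A second Sox4 region in the 5′ UTR and early coding sequence had 46, 50, 33 and 38 fragments. Sox12 had a coding summit of 11, 15, 17 and 16 fragments, between −530 and −494 nt, at overlapping percentiles of 52.7, 75.8, 86.6 and 74.8. The difference of 16.4 points was 4.87 without shCTR A and 22.5 by recovered fragments. Its rank difference was 0.54 ± 0.51 (SE, limma, adjusted p = 0.999). The log2 ratio of its share of summed fragments was 0.64 (Fisher's exact test, p = 0.0906, not passing after adjustment). Sox11 was weaker, with 12, 6 and 15 fragments around its stop codon in the 3 lists that held it.

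SoxD factors lack a transactivation domain, and Sox5 and Sox6 assist Sox9 in cartilage. Sox5 had a 3′ UTR peak of 7, 11, 5 and 12 fragments, at percentiles 41.2, 67.9, 19.4 and 72.1, so both B lists lay above both A lists. Sox13 had 10, 8 and 6 fragments in 3 lists, and Sox6 had 5 in 1 list.

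All 3 SoxF genes, which specify endothelial and arterial fate, had peaks. Sox7 (chr14:63943673-63950732) had 3, 4, 6 and 4 summits. Its 3′ UTR region, 474 to 503 nt past the stop codon start, held 46, 39, 34 and 27 fragments at percentiles 84.4, 88.5, 93.1 and 92.0. Both shMettl14 lists stood above both shCTR lists, with a rank difference of 0.34 ± 0.49 (SE, limma, adjusted p = 0.999). By percentile of recovered fragments in place of fold enrichment, the difference of 6.08 points turned to −2.90. The coding region of Sox7 had 30, 26, 23 and 21 fragments, with both shMettl14 values below both shCTR values, while its percentiles of 89.0, 75.6, 85.8 and 82.4 overlapped. Sox17 had a coding peak of 15, 16, 19 and 8 fragments, and Sox18 one of 14, 18 and 16 fragments with no interval in shMettl14 B.

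Markers of other cell types carried peaks as well. Of 7 endothelial markers, Pecam1, Cdh5 and Erg had a summit in all 4 lists and Kdr in 3, with 9 and 9 summits over the marker list in shCTR and 14 and 10 in shMettl14. Tek, Tie1 and Emcn had none. Of 6 smooth muscle markers, Lmod1 had a summit in all 4 lists and Myh11 in 3, while Acta2, Tagln, Cnn1 and Smtn had none, and a missing peak does not show that a transcript was absent. Per the study's methods, adventitia was digested away and the endothelial layer was scraped off before the aortas were plated. How many cells of either kind remained was not measured here, and the part of other cells in the SoxF peaks was not tested. None of 5 glial markers had a summit, and of 5 macrophage markers Csf1r had 1 in shMettl14 B. Of 5 fibroblast markers, Pdgfra and Col1a1 had 1 summit in each list and Dcn, Lum and Dpt had none, and the part of fibroblasts in the Fox peaks was not tested.

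To determine whether Mettl14 knockdown changed m6A on these transcripts, the 37 member regions were compared between shRNAs. Of these, 23 regions of 16 genes had a peak in all 4 lists, 4 in 3 lists, 5 in 2 lists and 5 in 1 list. No member region passed the rank test (limma on normal scores, Benjamini-Hochberg over all 4929 regions found in all 4 lists), where the smallest adjusted p of a member was 0.927. Over all 4929 regions 0% passed, so the members were no exception. Before adjustment 2 member regions had p under 0.05, the Foxn2 stop codon region (lower in shMettl14, as in 2.52% of all regions) and the upstream Foxn3 region (higher in shMettl14, as in 2.41%).

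Fisher's exact test on summed fragments also called 0 of the 23 member regions and 0% of all regions after adjustment. At an unadjusted p under 0.05 it called 0 member regions, beside 2.56% of all regions. By rank, 17 of the 23 member regions were lower and 6 higher in shMettl14, beside 49.9% and 50.1% of all regions tested. The median difference was −0.11 beside 0.0021 over all regions. By share of summed fragments, 15 member regions were lower and 8 higher, beside 46.4% and 53.6% of all regions. These counts carry no threshold and were not tested. A loss of m6A that affected all transcripts alike would leave ranks in place and cannot be seen with this measure.

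Percentiles did not overlap between the shRNAs in 9 of the 23 regions. Both shMettl14 lists were below both shCTR lists in 5 (Foxc1 3′ UTR, the stronger Foxk1 region, Foxm1, Foxn2 at the stop codon and Foxs1), beside 14.3% of all regions. Both were above in 4 (both Foxn3 regions, Sox4 3′ UTR and Sox7 3′ UTR), beside 17.3%. For the highest fragment number in a region, 14 of 23 had both shMettl14 values below both shCTR values and 1 (Sox12) had both above. The same held for 37.0% and 2.45% of all regions. Fragment numbers are not scaled for depth, and the shMettl14 lists had the lower median fragment numbers over all summits.

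**Figure D3:**
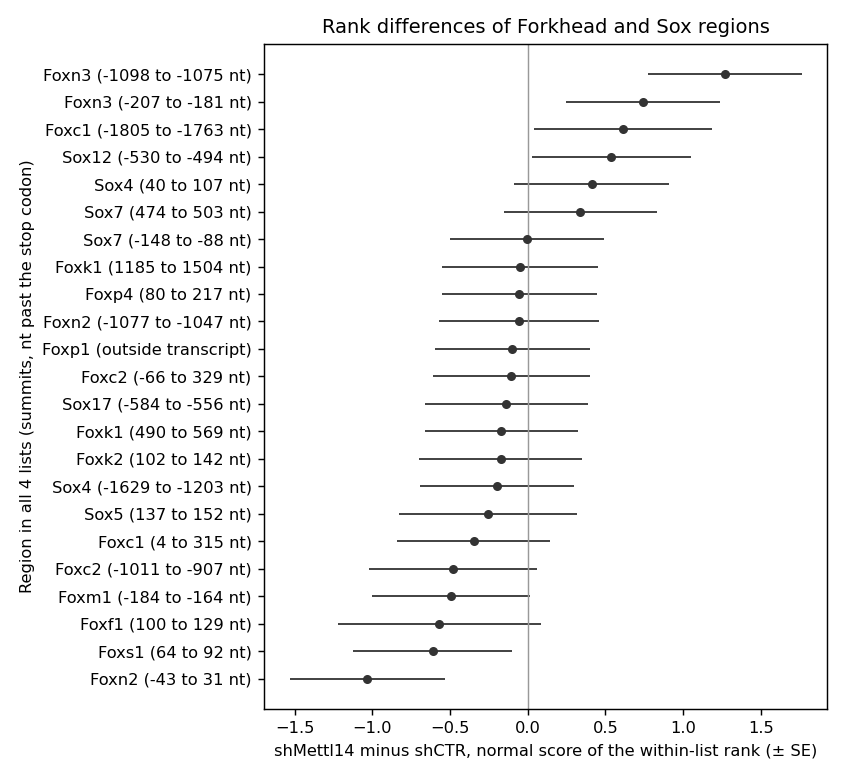
Each point is 1 of the 23 regions with a peak in all 4 lists, labelled with its gene and the positions of its strongest summits relative to the stop codon start. The horizontal axis is the difference shMettl14 minus shCTR in the normal score of the within-list rank, and bars are SE from limma with 2 lists per shRNA. Differences run from −1.03 in Foxn2 to 1.27 in Foxn3, and no region passed the adjusted threshold.

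The region of Foxj2, a forkhead activator, was the 1 member region with a peak in both lists of 1 shRNA alone. Its 5′ UTR peak (chr6:122820330-122820608) had 21 and 12 fragments, at percentiles 56.4 and 14.4. Regions of both shCTR lists alone made up 1.71% of all regions, and regions of both shMettl14 lists alone, of which no member had one, 1.79%. Summits of a like background in the shMettl14 lists went down to 8 and 9 fragments. The same comparison for the regions found under 1 letter alone gave 3 to 8 fragments. The background at the Foxj2 place in shMettl14 is not known, since no interval was called there, and why the peak is missing was not tested. The antisense gene Gm26826 overlaps this place on the minus strand, so the Foxj2 transcript and its antisense partner cannot be told apart.

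The authors also deposited 1 file of replicate overlaps per shRNA, without values. Exons of 19 members were hit in the shCTR file and of 18 in the shMettl14 file, with 16 members in both. Foxj2, Sox11 and Sox18 were in the shCTR file alone, and Foxp2 and Sox13 in the shMettl14 file alone. Sox11, Sox18, Foxp2 and Sox13 each had a peak in 1 list of the other shRNA as well, with 15, 16, 10 and 10 fragments.

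To describe where the peaks lay, each summit was placed in 1 coding transcript per gene. Within 200 nt of the stop codon start lay 39.5% of 43 and 32.6% of 43 member summits in the shCTR lists, and 35.8% of 67 and 38.3% of 47 in the shMettl14 lists. Over all genes these shares were 25.4% to 27.1%. The means of 36.0% ± 4.93 in shCTR and 37.1% ± 1.75 in shMettl14 (SD, n = 2 each) differed by less than the spread between the lists. Between 14 and 19 members per list had a summit in this window. Without Foxc1 and Sox4, the 2 genes with the most summits, the shares were 37.5% to 48.4%.

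Summits in the 5′ UTR made up 5.97% to 9.30% of member summits, beside 2.26% to 2.89% over all genes, and came from Foxc1, Sox4, Foxj2 and Sox21. The coding sequence held 46.5% to 55.2% of member summits and 65.5% to 67.2% of all summits, and the 3′ UTR 38.8% to 44.2% and 29.9% to 32.2%. Nearly all member summits, 97.0% to 97.9%, lay in exons of at least 400 nt, as did 97.4% to 98.3% over all genes. Of the 21 single-exon members, 8 had a summit, and so had 19 of the 37 with several exons. These shares were not tested, because summits of 1 gene are not independent.

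**Figure D4:**
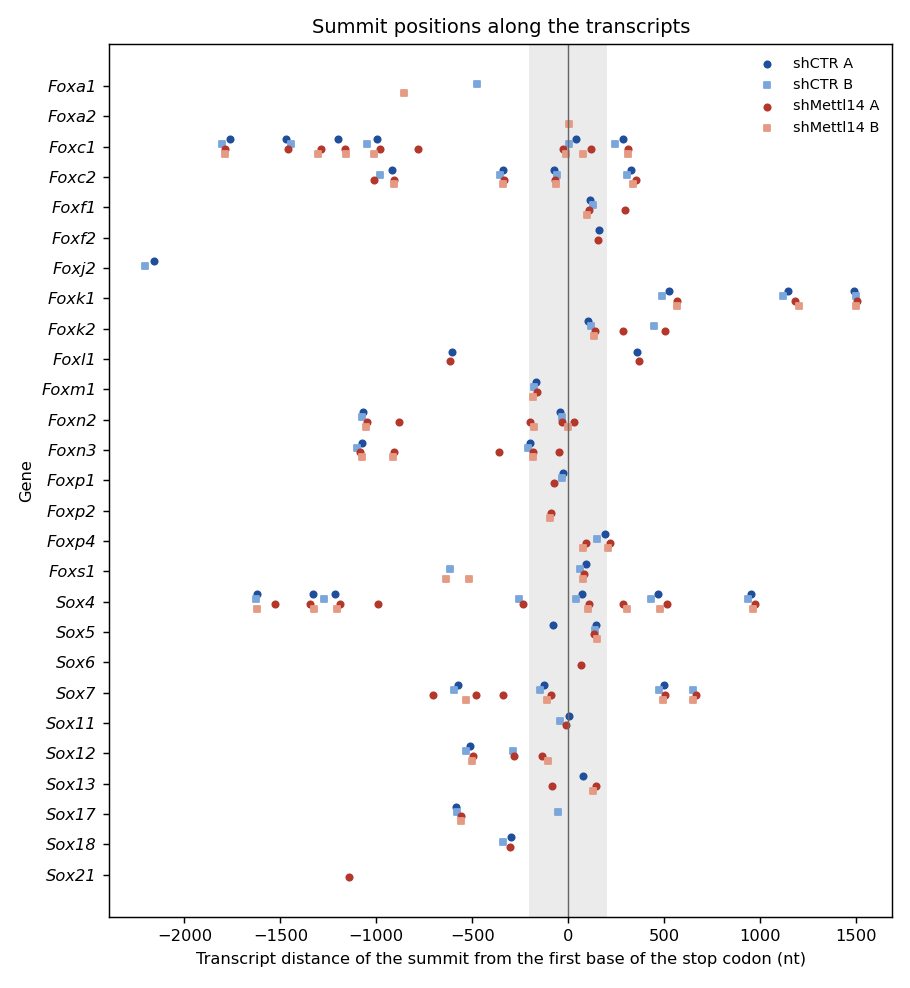
Each point is a member summit placed by its distance along the chosen transcript from the first base of the stop codon (nt, negative towards the 5′ end), in rows by gene and coloured by list. The grey band marks 200 nt on either side. Foxk2, Foxf2, Foxs1, Foxp4 and Sox5 have their strongest summits between 64 and 217 nt past the stop codon start, while Foxc1 and Sox4 have summits from the 5′ UTR to the 3′ UTR.

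A DRACH motif lay within 50 nt of 95.3%, 93.0%, 89.6% and 87.2% of member summits, and of 94.9% to 96.2% of summits over all genes. Both shMettl14 lists were below both shCTR lists for the members (means 88.4% ± 1.64 and 94.2% ± 1.64, SD, n = 2 each). The motif GGACT was found within 50 nt of 34.9%, 23.3%, 26.9% and 27.7% of member summits, beside 19.7% to 23.6% over all genes. Motifs were searched on the transcript strand, and each GGACT is also a DRACH motif.

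**Figure D5:**
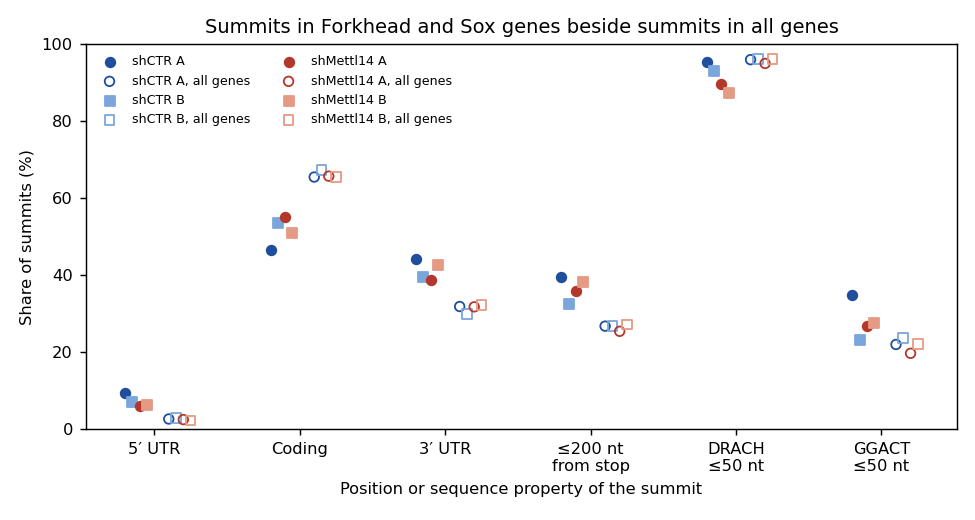
Filled symbols give the share of member summits (%) in each list and open symbols the share of all genes' summits in the same list, for 3 transcript parts, the window around the stop codon and 2 motif searches. Member shares lie above those of all genes for the 5′ UTR, the 3′ UTR and the stop codon window and below them for the coding sequence, in all 4 lists.

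The mean percentile of member summits was 60.9 and 58.9 in the shCTR lists and 56.5 and 55.4 in the shMettl14 lists. Both shMettl14 lists were lower, with means of 55.9 ± 0.767 and 59.9 ± 1.37 (SD, n = 2 each, exact permutation test, two-sided, p = 0.333, the smallest this design allows). With the strongest summit of each gene counted once, the means were 72.0 and 70.4 in shCTR and 72.4 and 63.7 in shMettl14, which overlapped (exact permutation p = 1).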

How the data were processed

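m6A-RIP-seq was available for 8 samples, and the 4 IP samples each had a peak list. The authors aligned reads to GRCm38 (mm10) with STAR and retained unique alignments through SAMtools. Peaks of each IP sample over its input came from MACS2, whose version and options are not given in the sources used here. The deposited values are the fold enrichment (a ratio) and −log10 of the p-value and q-value at each summit, with a smallest −log10 q of 2.01, and the deposited overlap files hold other values, interval positions without scores. Strand and read totals are not among these values, and intervals with several summits are listed once per summit.

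Whole-number fragments and the local background were recovered by solving the MACS2 formulas for both values, which succeeded for 100% of summits (−log10 p matched within 0.000151). This recovery was tested on simulated data. So was the limma step, with a simulated shift far larger than the spread. That check does not show whether the test could find differences of the size seen here. Recovered fragments are not scaled for depth and carry the spread between replicates as well as counting error. Regions were merged intervals sharing at least 1 bp. The highest fold enrichment of regions in all 4 lists was turned into normal scores of ranks and compared with limma 3.58.1 (R 4.3.3, lmFit and eBayes, two-sided, no replicate block, Benjamini-Hochberg threshold 0.05). Fisher's exact test, named in the methods, was run on recovered fragments with replicates summed and treats fragments as units. Its p-values therefore leave out the spread between replicates. Summits were placed in GENCODE M21 exons and in the 1 complete coding transcript with the longest coding sequence (21531 genes). Positions are 1-based. Python 3.11.15, pandas 2.3.3, scipy 1.17.1 and Biopython 1.88 were used.

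The members and comparison lists were chosen with earlier results of these data known, and 1 further gene that the rule finds is not reported here. Members in all 4 lists were described with their strongest region, and members in 1 to 3 lists were named with their lists. Of the members in all 4 lists, the 8 with the highest mean percentile received a printed site. The Foxn2 and Foxn3 coding sites and the values of further regions were added after values were seen. Alternatives were a −log10 q of at least 3, the 8655 best summits of every list, interval midpoints, an overlap of 100 bp, other rank measures, windows of 100 and 400 nt, a replicate block and leaving out each list.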

Additional observations from a re-analysis of the deposited data

How the results depend on the processing

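The small difference in members with a peak (0.5 more in shMettl14) turned to −1 when the 8655 best summits of each list were used, and ran from −1.5 to 2.5 when 1 list was left out, so it has no settled direction. Member summits stayed higher in shMettl14 under every alternative run (1.5 to 25.5, the lowest for distinct intervals, and 4.5 without shMettl14 A). Member regions called by the rank test stayed at 0 under all alternatives, and 0 to 3 had an unadjusted p under 0.05. With a replicate block 0 were called and 2 had an unadjusted p under 0.05. The letters were not taken as pairs because the methods name no replicate block and do not say what the letters share. Same-lettered lists shared deviations only weakly (r = 0.08 over regions). That value needs regions scored in every list and so leaves out regions found under 1 letter alone. Regions in both lists of 1 shRNA alone numbered 1, and 1 to 5 when 1 list was left out, where a single list then stands for its shRNA. The mean percentile stayed lower in shMettl14, with differences of −6.51 to −3.003 points, though the lists overlapped with 1 summit per gene, and the share near the stop codon differed by 1.01 points, by −0.49 to 2.08 with other windows or midpoints, and by −2.48 to 4.50 when 1 list was left out. For the strongest regions of 16 genes, ranking by −log10 p or recovered fragments moved 8 of 32 percentile differences by more than the spread (in Foxk1, Foxn2, Foxn3, Sox4 and Sox7) and changed the sign in Foxf1, Foxk2, Sox5 and Sox7, each by recovered fragments (to −2.90 in Sox7). Leaving out 1 list changed the sign in 8 genes, Foxc1, Foxc2, Foxf1, Foxk2, Foxp1, Foxp4, Sox5 and Sox17, so these have no settled direction. The median of 13 to 16 fragments per summit and 2 lists per shRNA limit the precision of every single region.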
